A study of Mus musculus with 8 samples.

Results

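Sinusoidal endothelial cells of mouse femur were examined in healing and intact bone. They were taken as the cells that carried the endothelial transcripts Cdh5, Pecam1, Emcn and Egfl7 (at least 5 unique molecular identifiers, UMIs, in all, with at least 1 of Cdh5) together with at least 1 UMI of Stab2, no UMI of the leukocyte gene Ptprc, at most 1 UMI over the arterial genes Gja4, Gja5, Sema3g and Sox17 and at most 1 over the proliferation genes Top2a and Mki67. The rule was met by 1167 of 45328 cells (2.57%), or 21.2% of the 5514 cells with the endothelial transcripts. They are called Stab2+ cells here. They were compared with 1661 Stab2-negative endothelial cells, which met every condition but had no Stab2 UMI, and with 1440 arterial endothelial cells, which had at least 3 UMIs over the 4 arterial genes, no Stab2 UMI and the same limits on Ptprc and the proliferation genes.

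The study profiled bone stromal cells of 12-week-old C57BL/6 mice by droplet-based single-cell RNA sequencing, with 4 libraries labelled Control and 4 labelled Fracture. Fracture mice were females whose left leg was broken by three-point bending at 10 weeks of age, stabilised with an intramedullary nail and analysed on day 14; Control mice were wild-type females of 12 weeks without fracture. Each group held 2 preparations (Control 1 and 2, Fracture 1 and 2), each run as 2 libraries, and the libraries of a preparation were summed, so that n = 2 preparations per group. Femurs were used, and blood lineage, CD45+ and CD117+ cells had been depleted with magnetic beads in both groups, so cell shares describe what the depletion left. The number of mice in a preparation was not given in the sources used here, and p-values measure the spread between preparations only.

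Sinusoids are the wide, thin-walled vessels that carry blood through the marrow from the arterioles to the central vein, and their endothelium is fenestrated and lets blood cells pass. It takes up waste molecules from the blood through scavenger receptors such as stabilin-2, the product of Stab2, which binds hyaluronan. Marrow sinusoids also surround many blood-forming cells, and in other tissues, such as liver, sinusoidal endothelium shares the scavenger genes but has markers of its own.

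The libraries held 56543151 to 89126291 UMIs, and the median Stab2+ cell held 4817.5 and 6414 UMIs in Control 1 and 2 and 7324 and 7436 in Fracture 1 and 2. Fracture cells thus held more UMIs each, which is called depth here, and the deposited Control barcodes reached down to 1 UMI while the Fracture barcodes began at 1929. No barcode of a Stab2+ cell was shared between libraries, 34 Stab2+ cells were marked by the doublet caller, and 290 genes whose symbol begins with U had no line in the tables of Control 1 and were left out of every comparison. Control 1 stood apart in its marrow stroma transcripts. The summed level of 6 marrow stroma markers in Stab2+ cells was 346 CPM (UMIs of a gene scaled to 1e+06 UMIs in all) in Control 1 and 48.8 in Control 2, against 95.04 and 59.3 in Fracture 1 and 2.

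The Stab2+ cells carried the markers that name them. Apart from Stab2, which defined them, the 4 sinusoidal markers were Dnase1l3, a secreted nuclease that degrades DNA in the blood; Mrc1, the mannose receptor; Gpr182, an atypical chemokine receptor; and Flt4, a receptor of the VEGF family. All 4 were detected together in 60.9% of the 769 Control Stab2+ cells and in 28.6% of the 398 Fracture Stab2+ cells, and none of the 4 in 0.780% and 5.03%. In cells thinned to 2000 UMIs, all 4 were detected in 29.9% of 730 Control and 3.27% of 397 Fracture Stab2+ cells, and none in 5.21% and 30.2%. Thinning evens the depth at which markers are read, but the cells had been chosen by Stab2 at full depth. Stab2 itself was found after thinning in 84.1% ± 1.29 of Control and 56.2% ± 3.27 of Fracture Stab2+ cells. The part of that choice in the marker shares was not tested. Among Stab2-negative endothelial cells, the 4 were detected together in 3.04% (Control) and 0.698% (Fracture) at full depth. After the same thinning, Dnase1l3 was detected in 70.4% ± 1.00 of Control and 24.7% ± 1.17 of Fracture Stab2+ cells (mean ± SD, n = 2). In Stab2-negative cells the shares were 8.23% ± 2.28 and 5.23% ± 1.47. In cells without any of the 4 endothelial transcripts, taken as a background level, they were 0.153% ± 0.0542 and 0.312% ± 0.0581. The part of free RNA in that level was not tested. Mrc1 was detected in 71.2% ± 4.10 and 33.3% ± 1.30 of Stab2+ cells.

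Other vessel and blood cell markers were looked at next, and those of bone, cartilage and red blood cells are given with the fracture comparison. The 5 lymphatic markers summed to 209 and 171 CPM in Control and 49.6 and 206 CPM in Fracture Stab2+ cells, 239 to 1048% of the level in non-endothelial cells. Most of this sum in Control was Mmrn1 (201 and 165 CPM in Control, 41.2 and 67.0 CPM in Fracture), a multimerin gene that was called lower after fracture and higher than in arterial cells. In Fracture 2 the largest member was Ccl21a, a lymphatic chemokine gene, with 122 CPM there and 0 CPM in the other 3 preparations. Prox1, the transcription factor of lymphatic endothelium, was found in 0.957% ± 0.574 of Control and 0.504% ± 0.0198 of Fracture Stab2+ cells after thinning. The 7 macrophage markers summed to 19.2 and 13.0 CPM in Control and 28.1 and 27.1 CPM in Fracture, and Cd68 was called higher after fracture. The 7 neutrophil lineage markers summed to 25.6 and 14.8 CPM in Control and 13.2 and 195 CPM in Fracture, and S100a9 was called higher. Of genes known from liver sinusoids, Gata4 and Clec4g were nearly absent. Gata4 had 0 and Clec4g had 1 of the 8528868 UMIs of all Stab2+ cells, and a count of 0 allows a level of up to 0.352 CPM. Of the listed scavenger genes, Lyve1 had 31 and Cd163 had 0 of these UMIs. After thinning, Lyve1 was found in 0.980% of Stab2+ cells in Fracture 2 and in 0% in each other preparation. Maf and 14 of the 18 listed scavenger genes had enough UMIs to be tested and are taken up with the fracture comparison. The cells thus carried the sinusoidal endothelial markers fixed for them, more fully in Control than in Fracture preparations.

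**Figure D1:**
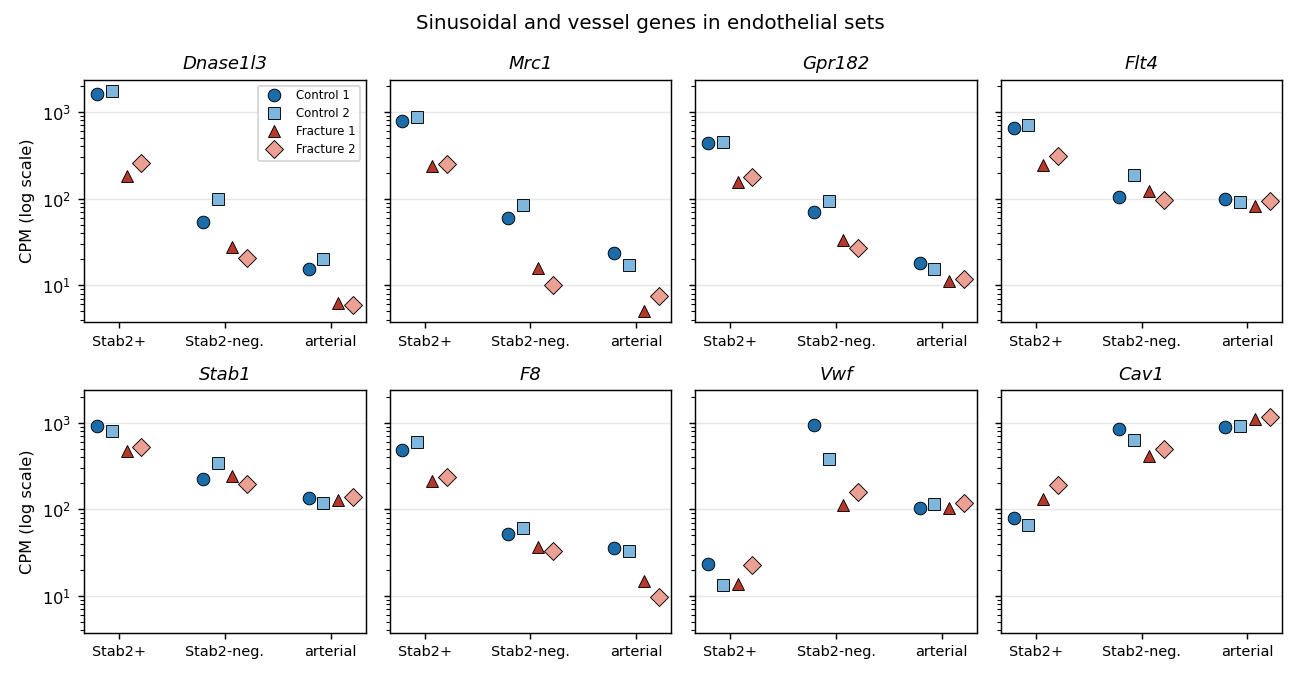
Level of 8 genes in Stab2+, Stab2-negative and arterial endothelial cells, in CPM of the summed cells (log axis), with 1 point for each of the 4 preparations (Control in blue, Fracture in red). Dnase1l3, Mrc1, Gpr182, Flt4, Stab1 and F8 were highest in Stab2+ cells in every preparation, Vwf and Cav1 were lowest there, and the 6 genes that were highest sat lower in Fracture than in Control Stab2+ cells.

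The number of Stab2 UMIs per cell varied widely. A single Stab2 UMI was found in 231 Stab2+ cells (19.8%), 2 UMIs in 135, 3 to 5 in 247 and 6 or more in 554 (47.5%). Cells with 6 or more made up 50.3% and 65.5% of the Control and 28.5% and 26.3% of the Fracture Stab2+ cells, although the Fracture cells were deeper. These classes come from the gene that chose the cells and are given as a description.

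At the edge of the rule, cells with 1 Stab2 UMI carried Dnase1l3 at 186 and 436 CPM in Control and 75.5 and 104 CPM in Fracture. The Stab2-negative cells just outside carried 54.0 and 98.4 CPM, and 27.1 and 20.4 CPM. Cells with 6 or more Stab2 UMIs carried 2364 and 2133 CPM in Control and 309 and 626 CPM in Fracture. Within each preparation the level of Dnase1l3 was thus higher in the cells with 6 or more Stab2 UMIs than in those with 1. Ly6a, the gene of the surface protein Sca-1 that is strong on arterial endothelium, ran the other way, from 882 and 949 CPM in Control cells without Stab2 to 375 and 460 CPM in those with 6 or more. Of the other conditions, 12 cells met the endothelial sum with exactly 5 UMIs and 15 more would have been Stab2+ cells but for a sum of exactly 4.

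**Figure D2:**
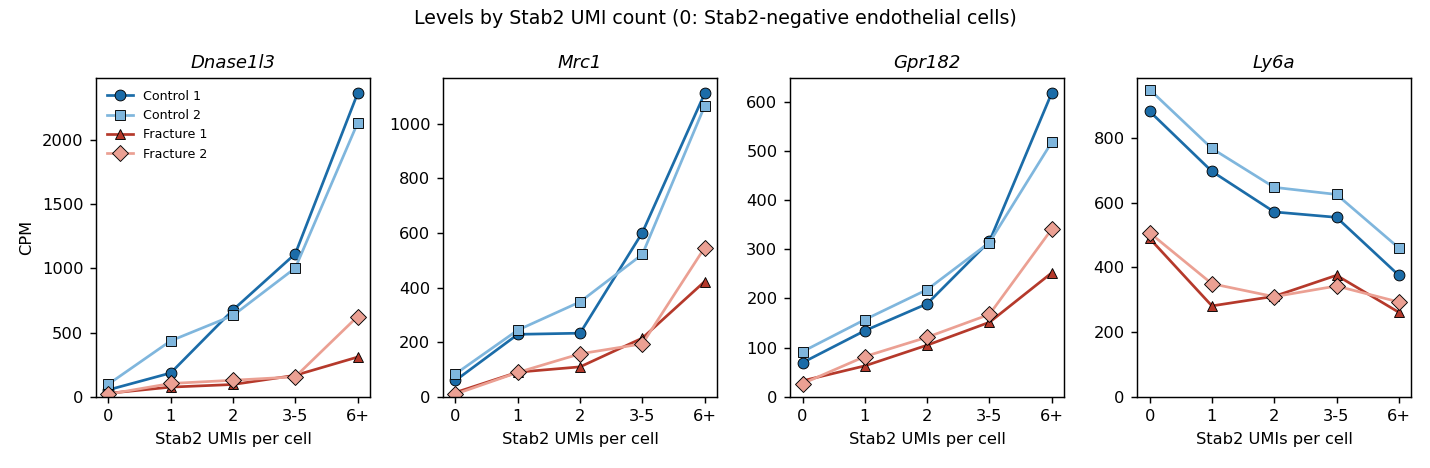
Level of Dnase1l3, Mrc1, Gpr182 and Ly6a (CPM, linear axes from 0) in endothelial cells grouped by their number of Stab2 UMIs, from 0 to 6 or more, with 1 line for each preparation (Control in blue, Fracture in red). Dnase1l3 was higher in the cells with 6 or more Stab2 UMIs than in those with 1 in each of the 4 preparations, and its Fracture points lie below its Control points in each class.

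The first comparison asked what share of the endothelium was Stab2+ with and without fracture. With cells thinned to 2000 UMIs, Stab2 was found in 44.4% of the endothelial cells of Control 1 and 55.7% of Control 2, against 16.8% of Fracture 1 and 15.1% of Fracture 2, where arterial, proliferating and Ptprc+ cells were set aside. The exact 95% binomial intervals were 40.6 to 48.2%, 51.5 to 59.9%, 14.1 to 19.9% and 12.6 to 17.9%, and cover counting error only. Both Fracture preparations thus lay below both Control preparations, with 50.1% ± 7.99 in Control and 16.0% ± 1.24 in Fracture (mean ± SD, n = 2 each), a difference of -34.1 percentage points. Cells under 2000 UMIs could not be thinned and were left out, 187 in Control and 1 in Fracture. A two-sided exact permutation test over the preparations gave p = 0.333, the smallest p that 2 against 2 can give.

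Without thinning the shares were 48.0% and 61.5% against 28.8% and 28.1%. In cells without endothelial transcripts, Stab2 was found in 0.0976 to 0.318% after thinning, far below all of these shares. At full depth, Stab2+ cells numbered 386 and 383 in Control and 193 and 205 in Fracture. Stab2-negative endothelial cells numbered 418 and 240 against 478 and 525. Because a cell was counted by its Stab2 UMIs, fewer sinusoidal cells, more of other endothelial cells and less Stab2 RNA per cell cannot be told apart here. Taken over all cells, Stab2+ cells were 3.03% and 4.84% in Control and 1.626% and 1.603% in Fracture preparations, shares that follow the bead depletion as well.

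**Figure D3:**
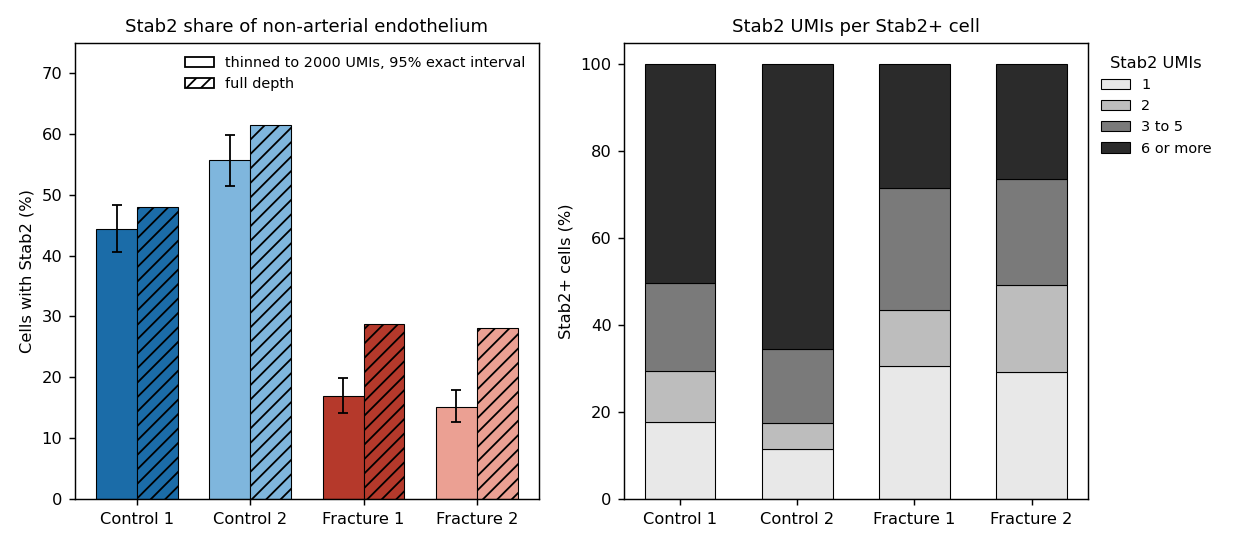
On the left, share of endothelial cells with Stab2 (percent) by preparation, after thinning each cell to 2000 UMIs (plain bars, with exact 95% intervals) and at full depth (hatched bars); on the right, percent of Stab2+ cells with 1, 2, 3 to 5 and 6 or more Stab2 UMIs. The Control preparations lie at 44.4% and 55.7% and the Fracture preparations at 16.8% and 15.1% after thinning, with no overlap at either depth.

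Proliferating Stab2 cells were not part of the set, and their share differed between the groups. Of the cells that met every other condition, those with more than 1 UMI of Top2a and Mki67 made up 3.98% and 6.81% in Control and 18.2% and 23.2% in Fracture preparations. These shares were counted at full depth, at which Fracture cells held more UMIs, and the part of depth in them was not tested.

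The second comparison asked which genes differed between Fracture and Control within the Stab2+ cells. The UMIs of the Stab2+ cells were summed per preparation and tested with edgeR's quasi-likelihood test, and a gene was called at a Benjamini-Hochberg adjusted p under 0.05. Of 10739 genes tested, 1330 were higher in Fracture (12.4%) and 975 were lower (9.08%). Without Fracture 1 the test called 561 genes and without Fracture 2 it called 792, in place of 2305, and DESeq2 called 1012.

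Transcripts of bone, cartilage and fibroblast cells were higher in the Fracture Stab2+ cells as well. The 8 chondrocyte markers summed to 4425 and 3590 CPM in Control and to 21779 and 17016 CPM in Fracture Stab2+ cells, and all 8 were called higher. In the 4 preparations these sums were 15.6 to 28.0% of the level in the non-endothelial cells. The 8 osteoblast markers rose from 8454 and 2836 to 32999 and 22893 CPM (6 of 8 called higher). The 6 fibroblast markers summed to 371 and 61.4 CPM in Control and 1536 and 1066 CPM in Fracture (3 of 6 called higher, Dcn, Igfbp6 and Prg4). The 4 haemoglobin genes were called higher while Car2, of the same list of red cell markers, was called lower. The 4 megakaryocyte markers fell from 633 and 184 to 35.9 and 53.7 CPM. As a share of the non-endothelial level, osteoblast markers stood at 8.44 and 3.11% in Control and 41.3 and 27.7% in Fracture. Fibroblast markers stood at 9.64 and 2.38% against 41.2 and 29.1%, and red cell markers at 27.9 and 3.32% against 99.2 and 88.2%. The shares of marrow stroma markers overlapped (27.0 and 3.32% against 37.9 and 19.8%). The part of RNA from other cells in the rises below was not tested, and the level of the same gene in non-endothelial cells is given beside some of them. Of the 1053 genes called higher whose preparations did not overlap and which reached 20 CPM, 380 were at or above the non-endothelial level in both Fracture preparations; of the corresponding 859 genes called lower, 802 were at or above it in both Control preparations. The genes named next come from these 380 and 802.

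Of the 12 largest falls in Stab2+ cells, the first by size was that of Cfd. Cfd, the gene of complement factor D, stood at 148 and 118 CPM in Control and at 1.90 and 0 CPM in Fracture Stab2+ cells, from 691 UMIs in Control and 3 in Fracture. Scaled to the total UMIs, the ratio was 159, with a counting interval of 54.1 to 771.

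Dnase1l3 stood at 1553 and 1711 CPM in Control and 193 and 274 CPM in Fracture, a log2 fold change of -2.80 ± 0.18 (SE, as for every log2 value that follows, edgeR adjusted p = 1.7e-04). Rgs4, a regulator that shortens signals of G protein-coupled receptors, stood at 411 and 367 against 36.8 and 50.5 CPM (-3.15 ± 0.16). Both receptors for the complement fragment C5a fell: C5ar1 from 29.1 and 38.5 to 6.35 and 2.32 CPM, and C5ar2 from 61.8 and 89.2 to 13.3 and 11.04 CPM. For these and all other genes named by the size of their change, a lack of overlap between the groups was a condition of being named. The gene of the guidance ligand semaphorin 3A, Sema3a, fell from 136 and 166 to 24.1 and 23.2 CPM (-2.67 ± 0.16). The flavin monooxygenase gene Fmo1 (149 and 134 against 15.2 and 12.2 CPM, -3.36 ± 0.17) and the junction receptor gene Cxadr (161 and 197 against 18.4 and 18.01 CPM, -3.29 ± 0.17) fell more than Sema3a. Also among the 12 largest falls were Crygn, Ston2 and Rasgrp1, with log2 fold changes of -2.85, -2.66 and -2.65.

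The 12 largest rises came from the 380 genes. Sparcl1, a secreted matrix-associated protein, stood at 62.2 and 52.9 CPM in Control and at 300 and 313 CPM in Fracture Stab2+ cells (2.41 ± 0.13, edgeR adjusted p = 1.0e-04), against 25.1 and 27.0 CPM in the non-endothelial cells of the Fracture preparations. Col18a1, a basement membrane collagen that gives rise to endostatin, stood at 41.3 and 37.8 against 161 and 193 CPM (2.16 ± 0.14). Apln, the ligand apelin that is typical of endothelial tip cells, stood at 42.6 and 30.9 against 147 and 170 CPM (2.11 ± 0.17). Of the 12 sprouting and angiogenic genes tested, Apln and Lamb1 rose, Dll4 and Ets1 fell and 8 were not called (median 0.02), near the 12.4% higher and 9.08% lower over all genes. After thinning, Apln was detected in 6.89% and 4.09% of Control and in 23.8% and 23.0% of Fracture Stab2+ cells.

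Hbegf, a growth factor ligand of the EGF receptor, rose from 18.4 and 12.2 to 49.5 and 95.3 CPM (2.26 ± 0.34), with the Fracture preparations far from each other. In the non-endothelial cells of the Fracture preparations it stood at 29.5 and 34.5 CPM. After thinning, Hbegf was detected in 3.03% and 2.45% of Control and in 8.81% and 2.94% of Fracture Stab2+ cells, so that Fracture 2, with the highest level, had a share within the range of Control. Cd276, an immune checkpoint ligand, rose from 11.5 and 11.5 to 64.1 and 57.5 CPM (2.40 ± 0.19), against 31.4 and 29.7 CPM in the non-endothelial cells of the Fracture preparations. The other 7 of the 12 largest rises reached at most 54.6 CPM in any preparation: Trim72, Gm17103, Dusp2, Milr1, Slc16a11, Tlcd2 and Mex3a, with log2 fold changes of 4.01 for Trim72 to 2.20 for Mex3a. Dusp2, Milr1 and Slc16a11 lost their call without Fracture 2, and the other 21 of the 24 genes kept theirs under each alternative in which they were tested.

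**Figure D4:**
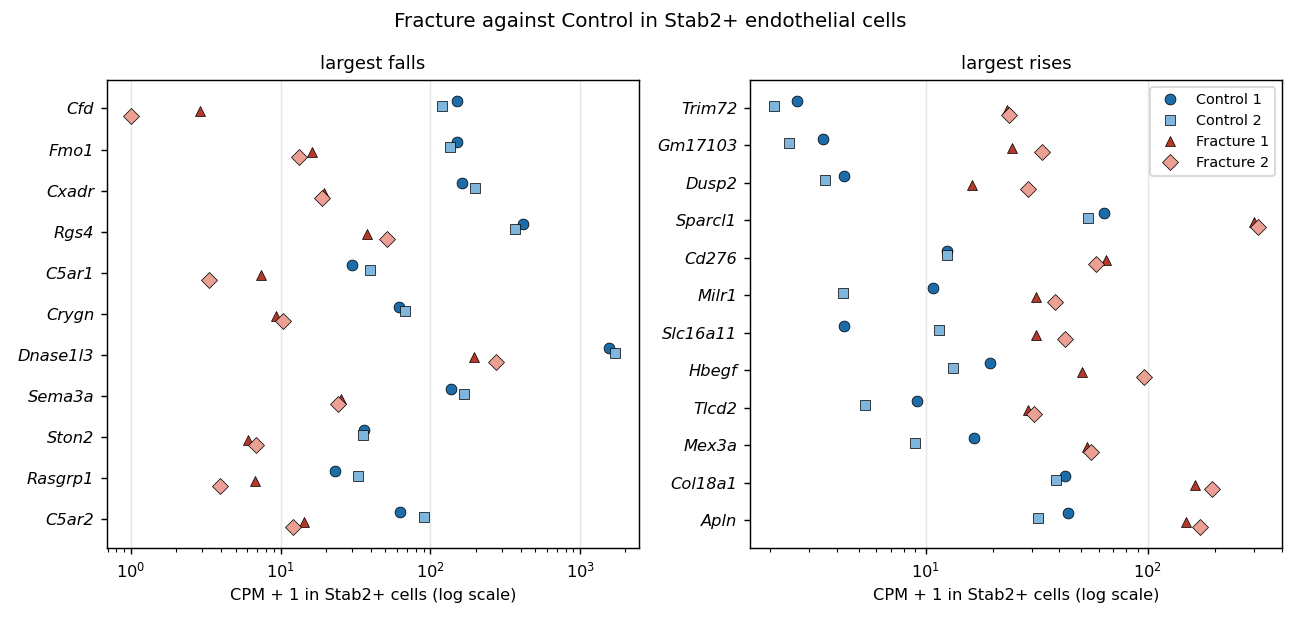
Level of the 12 genes that rose most and 11 of the 12 that fell most in Stab2+ cells after fracture, by preparation (CPM + 1 on a log axis, Control in blue and Fracture in red). The genes shown were chosen for Control and Fracture points that do not overlap, and Cfd was at 0 CPM in Fracture 2.

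These changes were also looked for in the cells with the most and the fewest Stab2 UMIs, classes that come from the gene that chose the cells and in which depth and Stab2 still differ between the groups. The 24 genes had been chosen from sums that hold these same cells, so what follows is a description and no independent test. The share of all genes that were apart in the cells with 1 or 2 Stab2 UMIs was not counted. In the 554 cells with 6 or more Stab2 UMIs, all 24 of these genes were still called in the same direction, and 671 genes were called in all, of which 634 were among the 2305. Dnase1l3 in this class stood at 2364 and 2133 CPM in Control and 309 and 626 CPM in Fracture. This class held 194 and 251 Control but only 55 and 54 Fracture cells. In the cells with 1 or 2 Stab2 UMIs, the levels of 11 of the 12 risen and 8 of the 12 fallen genes were apart between the groups in the same direction. The exceptions were Apln (72.7 and 141 against 124 and 197 CPM) and, among the falls, Rgs4 (18.6 and 34.6 against 17.2 and 20.3 CPM), Sema3a, Crygn and Ston2.

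The 4 sinusoidal markers beside Stab2 were all called lower in Fracture, with a median log2 fold change of -1.46. Cells with 6 or more Stab2 UMIs made up 50.3% and 65.5% of Control but 28.5% and 26.3% of Fracture Stab2+ cells. In Control 1 and 2, Mrc1 stood at 229 and 244 CPM with 1 Stab2 UMI and at 1110 and 1064 CPM with 6 or more. The part of this mix of cells in the fracture changes of this and the other lists was not tested. Of 14 scavenger and endocytic genes tested, 6 were lower (against 9.08% of all genes) and 2 were higher (against 12.4%), and their median log2 fold change was -0.53, against 0.00 over all genes tested. Ctsl, the lysosomal protease cathepsin L, stood at 2885 and 3897 against 1126 and 1056 CPM (-1.64 ± 0.16). Mrc1 stood at 754 and 861 against 253 and 263 CPM (-1.65 ± 0.12). Stab1, the relative of Stab2, fell less, from 876 and 788 to 507 and 547 CPM (-0.66 ± 0.12), and lost its call without either Fracture preparation and in the cells with 6 or more Stab2 UMIs. Fcgr2b, an Fc receptor that takes up immune complexes, and Ehd3, an endosomal recycling gene, were the other falls. The 2 rises, of which Lrp1 is one, stayed below the level of non-endothelial cells.

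Of 16 receptors and ligands of the VEGF, Tie and adrenomedullin systems, 6 were called lower (9.08% over all genes), 2 higher (12.4%) and 8 neither way, with a median of -0.36. Flt4 fell from 629 and 682 to 259 and 325 CPM (-1.17 ± 0.14), and Kdr, the main VEGF receptor of endothelium, from 1393 and 1445 to 791 and 891 CPM (-0.75 ± 0.12). Gpr182 fell from 424 and 434 to 166 and 189 CPM (-1.27 ± 0.12). Tek, Calcrl and Ramp3 were the other falls. Of the 6 falls, all but Gpr182 lost their call in the cells with 6 or more Stab2 UMIs. On the ligand side Apln rose, and its receptor gene Aplnr rose slightly, from 663 and 514 to 803 and 860 CPM (0.50 ± 0.15). Vegfa (38.5 and 39.2 against 74.2 and 47.6 CPM, edgeR adjusted p = 0.071) did not pass the test.

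Transcription factors of the endothelium included 7 falls (9.08% over all genes) and no rise among 15 tested, with a median of -0.42. Maf, which is known for its part in sinusoidal identity of the liver, fell from 398 and 390 to 184 and 174 CPM (-1.14 ± 0.11). The venous factor gene Nr2f2 fell from 570 and 670 to 381 and 436 CPM (-0.60 ± 0.13). Sox18, Klf2, Meis2 and Tfec were among the others, and all 7 were above the non-endothelial level in both Control preparations. In the Notch pathway, Notch1, Notch4, the ligand gene Dll4 and the modifier gene Lfng fell and the target gene Hes1 rose, of 12 tested (median -0.19, with 9.08% of all genes lower and 12.4% higher). Notch1, Notch4 and Dll4 lost their call with DESeq2, in thinned cells and in the cells with 6 or more Stab2 UMIs. Hes1 also lost it in the cells with 6 or more, and Lfng kept it.

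Coagulation genes, those that drive clotting and those that hold it back, changed in both directions. Of 14 tested, 6 were lower and 4 higher, against 9.08% and 12.4% of all genes. Thbd, the thrombin receptor thrombomodulin, stood at 889 and 942 CPM in Control and 229 and 281 CPM in Fracture (-1.84 ± 0.14). Tfpi, the inhibitor of the tissue factor pathway, stood at 2574 and 3051 against 897 and 915 CPM (-1.63 ± 0.13), and F8, clotting factor VIII, at 466 and 579 against 225 and 251 CPM (-1.14 ± 0.14). F2r, Pros1 and Mmrn2 also fell. Procr, the receptor of protein C, rose from 43.8 and 38.5 to 78.1 and 83.7 CPM (0.98 ± 0.15), as did Anxa2; the rise of F3 was from under 7 CPM and stayed below the non-endothelial level.

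Of 14 adhesion genes, 3 were higher and 3 lower, against 12.4% and 9.08% of all genes. Vcam1, an adhesion receptor for blood-forming cells, fell from 1216 and 1310 to 400 and 404 CPM (-1.65 ± 0.12), and Darc, the atypical chemokine receptor of venous endothelium, from 364 and 648 to 147 and 127 CPM (-1.88 ± 0.26). Sele fell from 172 and 255 to 93.9 and 106 CPM (-1.09 ± 0.19). Icam1 rose from 18 and 23.7 to 56.5 and 44.7 CPM (1.27 ± 0.21), and Jam2 and Alcam also rose. Of 12 junction and caveolar genes tested, 4 fell, 1 rose and 7 were not called, against 9.08% lower and 12.4% higher over all genes. Cldn5 fell from 1289 and 1454 to 844 and 846 CPM (-0.70 ± 0.12), with Ptprb, Pcdh12 and Ctnnd1. Cav1, the main caveolar coat gene, rose from 75.7 and 64.4 to 142 and 199 CPM (1.28 ± 0.18). In the cells with 1 or 2 Stab2 UMIs, Cav1 overlapped between the groups (161 and 199 against 154 and 230 CPM).

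Of 14 secreted niche and growth factor genes tested, 4 fell (Angptl4, Pdgfb, Tnfsf10 and Flt3l) and Igf1 rose, against 9.08% and 12.4% of all genes. Igf1 was below the non-endothelial level, and its log2 fold change was -0.16 in the cells with at least 6 Stab2 UMIs. Cxcl12, the chemokine that holds blood-forming cells in the marrow, stood at 897 CPM in Control 1 but at 78.0 in Control 2 and 50.8 and 74.9 in Fracture, and did not pass the test (edgeR adjusted p = 0.059). The high value was that of the preparation whose Stab2+ cells also carried the most marrow stroma transcripts, and Cxcl12 stood at 2824 CPM in its non-endothelial cells; the part of these transcripts in the value was not tested. Kitl, the stem cell factor gene, stood at 81.4 and 26.2 against 51.4 and 51.1 CPM, with the groups overlapping.

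Of 15 basement membrane genes, 8 rose (12.4% over all genes), none fell and 7 were not called, with a median of 0.68. Besides Col18a1, Col15a1 rose from 58.9 and 37.4 to 127 and 143 CPM (1.495 ± 0.20), the laminin gene Lama4 from 84.7 and 85.2 to 178 and 188 CPM (1.11 ± 0.11), and Col4a2 from 683 and 668 to 899 and 997 CPM (0.49 ± 0.12). Lamb1 rose too, and these 5 were above the non-endothelial level in both Fracture preparations. Sparc, Fn1 and Col13a1 were below it. In the cells with 1 or 2 Stab2 UMIs, Lama4 overlapped between the groups (170 and 245 against 197 and 196 CPM). Of 14 matrix proteases and their inhibitors, 8 rose (12.4% over all genes) and Timp3 fell, but only Mmp14, Adamts4 and Adamts9 were above the non-endothelial level; Mmp13, which is strong in late chondrocytes and osteoblasts, rose from 22.9 and 6.47 to 428 and 512 CPM in Stab2+ cells and stood at 1236 and 1271 CPM in the non-endothelial cells of the Fracture preparations.

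Interferon-stimulated genes held 5 rises (12.4% over all genes) and no fall among 19, the 5 being above the non-endothelial level, with a median of 0.21. Isg15 rose from 72.8 and 54.7 to 143 and 126 CPM (1.08 ± 0.16) and Bst2 from 555 and 588 to 887 and 902 CPM (0.65 ± 0.11); Irf7, Ifitm3 and Gbp3 were the others. Of 14 antigen presentation genes, Psmb8 and H2-Ab1 rose and H2-T23 and Tap2 fell, shares near those over all genes (12.4% and 9.08%). Of 16 replication and growth genes, 6 rose (12.4% over all genes) and none fell, in cells from which proliferating ones had been set aside: Odc1, the first enzyme of polyamine synthesis, from 56.9 and 41.0 to 125 and 90.6 CPM, and Myc from 22.5 and 19.8 to 40.6 and 41.8 CPM, with Ccnd1, Cdk4, Mcm6 and Cdk1, the last below the non-endothelial level.

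Of 11 lipid genes tested, 3 rose, 3 fell and 5 were not called, against 12.4% higher and 9.08% lower over all genes. Of the rises only Fabp5 was above the non-endothelial level in both Fracture preparations. Fabp5, an intracellular fatty acid carrier, rose from 49.5 and 63.6 to 175 and 185 CPM (1.66 ± 0.14), while Fabp4, its far more abundant relative, stood at 10668 and 14428 against 11745 and 12102 CPM and did not pass the test (-0.07 ± 0.16, edgeR adjusted p = 0.78). Apoe fell from 2159 and 2405 to 620 and 761 CPM (-1.72 ± 0.15), and in non-endothelial cells it stood at 900 and 844 against 64.7 and 74.2 CPM. Of 14 glycolysis and hypoxia genes, 8 rose and Ndrg1 fell (median 0.65), and of 16 immediate early and heat shock genes, 5 rose and Hspa1b fell (median 0.69), against 12.4% and 9.08% of all genes. Of these rises only Pfkp and Ier3 were above the non-endothelial level. In TGF-beta and BMP signalling, Smad7 and Bambi rose and Tgfbr2 and Acvrl1 fell, of 12 tested (median -0.22), again near the shares over all genes.

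**Figure D5:**
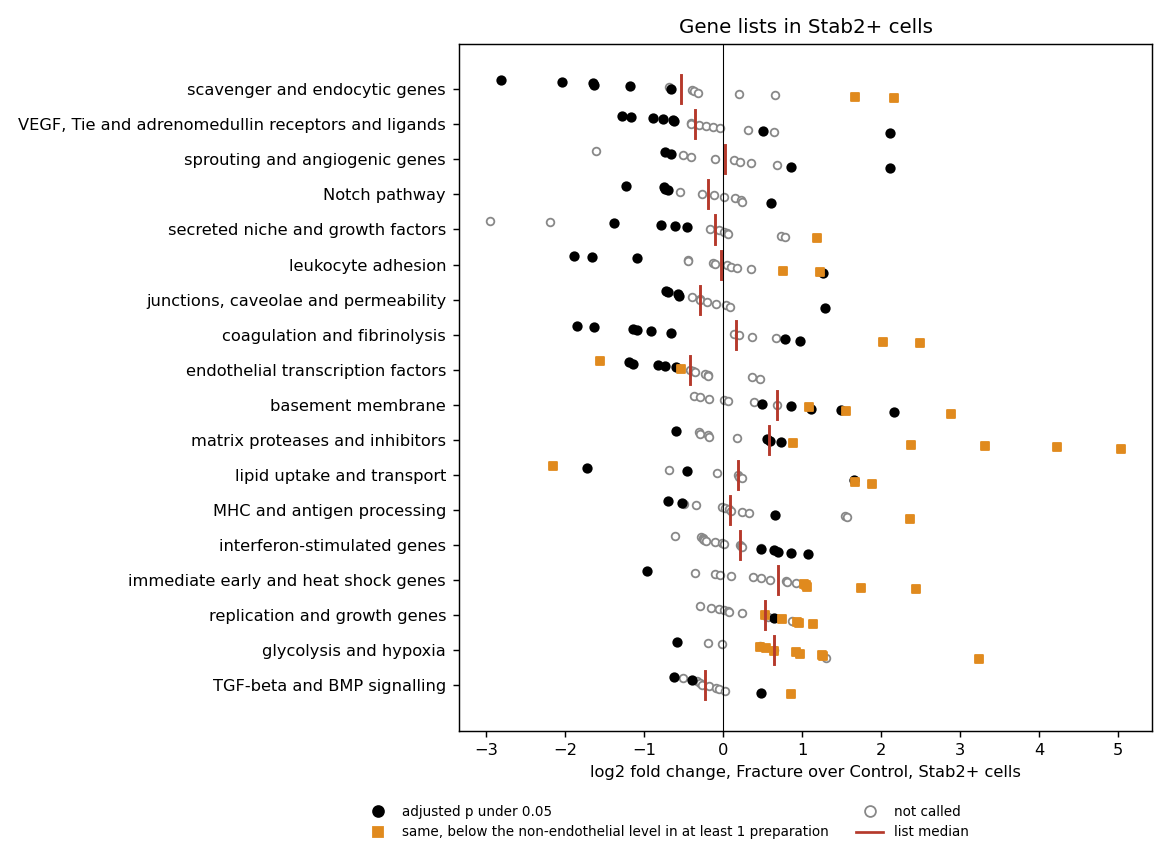
log2 fold change, Fracture over Control, of each tested gene of 18 lists in Stab2+ cells. Filled marks are genes with an adjusted p under 0.05 (orange squares where the gene was below the non-endothelial level in at least 1 of the 4 preparations), open marks did not pass, and the red bar is the list median, from -0.53 in scavenger genes to 0.69 in immediate early genes.

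Over these lists, 108 further genes were called. Of them 33 kept their call without Fracture 1 and 51 without Fracture 2, and 51 of the 101 that could be tested kept it in the cells with 6 or more Stab2 UMIs. Under every alternative in which they were tested 26 kept it, among them Thbd, Tfpi, F8, Mrc1, Gpr182, Ctsl, Vcam1, Darc, Maf, Sox18, Lama4, Col15a1, Cav1, Procr, Isg15, Fabp5 and Apoe.

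The third comparison set the Stab2+ cells against the Stab2-negative endothelial cells of the same preparations, which holds each preparation as its own control. The median Stab2-negative cell held 3389 and 3906 UMIs in Control 1 and 2, fewer than the median Stab2+ cell. In Fracture 1 and 2 it held 6836.5 and 7651. A cell with few UMIs meets the condition of no Stab2 UMI more easily. With at least 3000 UMIs per cell, 994 genes were called, 971 of them shared with the main test. Since Stab2 parted these sets, the calls describe what goes with Stab2 in the same cells and are no independent test. Of 11800 genes tested, 520 were higher (4.41%) and 603 lower (5.11%) in Stab2+ cells. Leaving out a preparation lowered the count of 1123 to 480 (Control 1), 510 (Control 2), 725 (Fracture 1) and 541 (Fracture 2).

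Among the 10 genes that set Stab2+ cells apart most, Nat8l, the enzyme that makes N-acetylaspartate, stood at 43.2 and 51.8 CPM in Control and 12.0 and 8.81 CPM in Fracture Stab2+ cells, against 0.9502 and 0.814 and then 0 CPM in both Fracture sets of Stab2-negative cells; from 290 and 3 UMIs the ratio was 142, with a counting interval of 48.0 to 692. Lipg, the endothelial lipase, stood at 263 and 380, then 51.5 and 57.3 CPM in Stab2+ cells, and at 3.80 to 10.3 CPM in Stab2-negative cells (4.31 ± 0.64). Ptger2, a prostaglandin receptor gene, and 1810011H11Rik, Crygn, Rgs4, Cdkl1, Mrc1 and Dnase1l3 were also among the 10 largest, with log2 differences from 5.40 for Ptger2 to 3.78 for Dnase1l3.

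By list, and against 4.41% of all genes higher and 5.11% lower, 7 of 15 scavenger genes were higher in Stab2+ cells and Lrp1 was lower. Ctsl stood at 1002 to 3820 CPM in Stab2+ and 456 to 592 CPM in Stab2-negative cells. Clotting genes lay in both directions: F8 (212 to 568 against 34.9 to 59.4 CPM), Tfpi (846 to 2991 against 163 to 344 CPM), Thbd, Tfpi2, Plau and Mmrn2 were higher, and Vwf (12.7 to 22.6 against 115 to 1002 CPM), Plat and Anxa2 were among the 4 that were lower. None of these 3 ranges overlapped. Nr2f2, Vcam1, Fabp4 and Angptl4 were higher as well. Sprouting and angiogenic genes were lower in 8 of 15 cases and higher in none, among them Igfbp3 (33.5 to 65.5 against 182 to 322 CPM) and Esm1. Basement membrane genes were lower in 7 of 15 cases, among them Col18a1 and Col15a1, 2 genes that rose in Stab2+ cells after fracture, and Nid1 was higher. The fenestral diaphragm gene Plvap did not differ beyond the test between the sets (1426 to 1737 against 1290 to 1693 CPM).

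Among the 10 genes that were lowest relative to Stab2-negative cells were Gp5 and Rgs18, which platelets and megakaryocytes use, and Atp2a3. A few Stab2-negative cells were rich in megakaryocyte transcripts: over 20 UMIs of Pf4, Ppbp, Itga2b and Gp1bb were found in 16 and 6 Control and 3 and 1 Fracture Stab2-negative cells, and in 2, 1, 0 and 0 Stab2+ cells. The megakaryocyte markers summed to 11856 and 1714 CPM in Control and 74.5 and 202 CPM in Fracture Stab2-negative cells. Without such cells, chosen after the data were seen, Gp5, Rgs18 and Atp2a3 were no longer called, and 1312 genes were. Timp4, Stmn2, C1qtnf9, Tmem255b, Ptk2b and Ret kept their call there and Prokr1 was too low to be tested, but C1qtnf9, Tmem255b and Ret, like Crygn and Rgs4 in the other direction, lost it when 1 of the preparations was left out. Stmn2, a microtubule regulator, stood at 0.404 to 4.19 CPM in Stab2+ and 74.9 to 111 CPM in Stab2-negative cells in every preparation.

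Against arterial endothelium the contrast was wider, and it describes sets that were drawn apart by the gate. Of 11926 genes tested, 1595 were higher (13.4%) and 1663 lower (13.9%) in Stab2+ cells, and without Control 1 the count of 3258 fell to 1848. Dnase1l3 stood at 188 to 1727 against 6.16 to 19.7 CPM (6.08 ± 0.30), and Il13ra2, the decoy receptor of interleukin 13, at 70.3 to 168 against 0.685 to 2.80 CPM (6.25 ± 0.30). Lipg and C5ar2 were also among the 5 largest, with 5.77 ± 0.76 and 5.64 ± 0.30.

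In the other direction, Gkn3, a marker of arterial endothelium in other organs, had 1060 UMIs in arterial cells and 0 in Stab2+ cells. Set against 3 counts over all Stab2+ cells, it was at least 255-fold lower. Tox2 (379 against 0 UMIs) was at least 91.1-fold lower, Stmn2 differed by -8.38 ± 0.32, and Car7 and Slc26a10 had 3 and 1 UMIs in Stab2+ cells, for ratios of 299 (counting interval 102 to 1450) and 283 (50.4 to 11195). All 4 smooth muscle markers tested (Acta2, Myh11, Rgs5 and Tagln) were lower in Stab2+ cells (median -3.52, with 13.9% of all genes lower). The part of smooth muscle RNA in the levels of the arterial set was not tested. Of 16 Notch genes, 9 were lower in Stab2+ cells and 2 higher (median -1.06, with 13.9% of all genes lower and 13.4% higher), with Hey1 at 0.363 to 2.30 against 95.3 to 168 CPM. Of 14 adhesion genes, against the same shares, 7 were higher, including Sele, Selp, Vcam1 and Darc, and 5 were lower; Cxcl12 and Kitl were lower in Stab2+ cells in each preparation.

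The last comparison asked whether fracture changed Stab2+ and Stab2-negative endothelial cells by the same amount. In Control the Stab2-negative cells held fewer UMIs than the Stab2+ cells, as given above, and the part of depth in this comparison was not tested. Stab2 alone parted these sets, and after thinning the share with Stab2 was 50.1% in Control and 16.0% in Fracture. A change within the cells of a set and a change in which cells the set held therefore cannot be told apart here. The difference of the effects was called in 266 of 11800 genes, with 217 positive (1.84%), where the change in Stab2+ cells was more upward or less downward, and 49 negative (0.415%). No gene was called without Fracture 1 or without Fracture 2 (910 and 969 genes with an unadjusted p under 0.05), and 57 were called without the cells rich in megakaryocyte transcripts, so the count moved by over 1.5 times with few cells and needed both Fracture preparations.

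The fall of the 4 sinusoidal markers was not shown to be larger in Stab2+ cells. Dnase1l3 stood at 58.0 and 98.4 CPM in Control and 28.4 and 22.2 CPM in Fracture Stab2-negative cells, and the difference of its effects was -1.29 ± 0.33 (edgeR adjusted p = 0.14). Mrc1, Gpr182 and Flt4 likewise did not pass (edgeR adjusted p = 0.23, 0.94 and 0.20). The rise of Apln was not shown to differ either (0.73 ± 0.28, edgeR adjusted p = 0.30): in Stab2-negative cells it stood at 59.9 and 71.6 against 176 and 152 CPM.

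Ctsl did differ, by -1.56 ± 0.12 (edgeR adjusted p = 0.0088). It stood at 2850 and 3820 against 1062 and 1002 CPM in Stab2+ cells and at 456 and 592 against 494 and 466 CPM in Stab2-negative cells. The lysosomal protease gene Lgmn (-1.14 ± 0.15), Tfpi (-0.93 ± 0.16) and Angptl4 (-1.33 ± 0.24) also had a negative difference. Cav1 had a positive one (1.88 ± 0.17): it rose in Stab2+ cells and stood at 902 and 622 against 422 and 527 CPM in Stab2-negative cells. Fabp5 (2.26 ± 0.28), Jam2 (1.51 ± 0.18), Cd36 (1.77 ± 0.30) and Vwf (2.24 ± 0.26) also had a positive difference, of which Fabp5 and Jam2 were called higher in Stab2+ cells after fracture and Cd36 and Vwf were not. The blood and endothelial factor genes Gata2, Fli1, Tal1 and Lyl1 had a positive difference too. Of the 26 listed genes called for the difference, 7 were still called without the cells rich in megakaryocyte transcripts, among them Ctsl, Cav1, Fabp5, Jam2 and Vwf (2.53 there). Lgmn, Tfpi, Angptl4 and Cd36 were not called there (edgeR adjusted p = 0.051, 0.072, 0.053 and 0.052), with differences of -1.04, -0.78, -1.29 and 1.93. Gata2, Fli1, Tal1 and Lyl1 were not called either, and their differences there were 0.96, 0.57, 0.42 and 0.28 on the log2 scale, against 1.85, 1.06, 1.70 and 2.04 with those cells.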

How the data were processed

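Single bone stromal cells were sequenced with the Chromium 3' kit in 8 libraries. The deposited values are counts of UMIs for each gene in each barcode, not normalised, and the authors mapped the reads to mm10; the submitters' processing notes name bcl2fastq 2.19.1.403, UMI-tools 1.0.0, STAR 2.7.3a and Subread featureCounts 1.6.4, and the published methods name STARsolo with Gencode M23. The published methods name EmptyDrops (DropletUtils) as a filter on the count matrix; whether the deposited barcodes had passed it is not given in the sources used here.

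Barcodes with 500 to 6000 genes and at most 25% mitochondrial UMIs were kept, as in the published methods (45328 of 48903), and genes were kept if found in at least 3 cells. Doublets were called with scrublet (scanpy 1.11.5), which marked 718 cells (1.58%), and were left in. Libraries share at most 23 barcodes. Within a preparation, the counts of a set of cells were added up across both libraries. CPM is scaled by the TMM factors of the comparison it stands in, except marker sums, Stab2 classes and the plot of 8 genes, which use total UMIs, so values of one gene differ slightly between comparisons. Tests used edgeR 4.0.16 (glmQLFit, glmQLFTest, filterByExpr, R 4.3.3) without a covariate between groups, and with preparation as a block between sets; SE is the log2 fold change over the square root of F. The 290 genes with a symbol beginning with U, 1.26 to 1.41% of UMIs elsewhere, are not analysed here. Scripts were tested on simulated data.

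Named genes were the 12 largest rises and falls after fracture, the 10 largest against Stab2-negative cells and the 5 largest against arterial cells in each direction among called genes without overlap (or with 1 sign in all 4 preparations), at 20 CPM or more and at or above the non-endothelial level; for the difference of effects, the 5 largest in each direction with 20 CPM or more in any set and group. Any gene of the lists could be named too. Gate, haemoglobin and mitochondrial genes were not named. The cells, lists and rules were chosen with earlier results of these data known. Alternatives were other size factors, no filter, DESeq2 1.42.0, stricter Stab2 limits, no doublets, deeper or thinned cells, a replicate block and leaving out each preparation. Results for some genes are not reported here, though counts include them.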

Additional observations from a re-analysis of the deposited data

Results flagged for a closer look

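In 10 genes the change after fracture differed between Stab2+ and Stab2-negative endothelial cells by the test of the difference itself. All differences are log2 values from edgeR (n = 2 preparations per group), and all 10 lost their call without Fracture 1 and without Fracture 2. Prg4, Ablim3, C1qtnf9, Ret and Dpt also lost it when at least 3 Stab2 UMIs were required.

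Sele, the gene of E-selectin, had levels that moved in opposite directions. It stood at 170 and 250 CPM in Control and 88.6 and 101 CPM in Fracture Stab2+ cells, and at 44.7 and 20.3 against 146 and 192 CPM in Stab2-negative cells, a difference of -3.42 ± 0.44. Rgs4 fell from 406 and 360 to 34.7 and 47.9 CPM in Stab2+ cells and stood at 6.18 and 5.70 against 7.09 and 8.40 CPM in Stab2-negative cells, a difference of -3.60 ± 0.25. Dclk1, a doublecortin-like kinase gene, stood at 88.5 and 110 against 17.95 and 13.2 CPM in Stab2+ cells and at 9.03 and 3.26 against 12.4 and 14.2 CPM in Stab2-negative cells (-3.63 ± 0.49). Pex11a, a peroxisome gene, had a difference of -3.49 ± 0.47, from 38.4 and 33.5 against 4.79 and 8.82 CPM in Stab2+ cells.

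The other 6 were low in Stab2+ cells or tied to other cell types. Dpt, a fibroblast marker that also lost its call with DESeq2 and without Control 1, had a difference of -5.05 ± 0.73, with 0.475 and 0 against 31.1 and 32.8 CPM in Stab2-negative cells and 6.47 and 0.353 against 12.6 and 11.02 CPM in Stab2+ cells. Prg4, the lubricin gene of joint fibroblasts, had a difference of 7.36 ± 0.69, with 401 and 9.76 against 13.2 and 12.9 CPM in Stab2-negative cells and 9.70 and 2.47 against 49.7 and 101 CPM in Stab2+ cells, where it was called higher after fracture. The high value in Stab2-negative cells was that of Control 1 alone, and Prg4 kept its call without that preparation. Ablim3 (6.55), C1qtnf9 (5.89), Aqp7 (5.82) and Ret (5.39) had at most 12.7 CPM in Stab2+ cells and were lower in Fracture than in Control Stab2-negative cells. Without the cells rich in megakaryocyte transcripts, Ret and Dpt were no longer called (edgeR adjusted p = 0.053 and 0.052), with differences of 5.56 and -4.86 there, and the other 8 were.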

How the results depend on the processing

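The share of Stab2+ cells was lower in Fracture under each setting, with a difference of -26.3 percentage points without thinning and -17.4 over all endothelial cells, and of -39.7 to -28.4 with 1 preparation left out (no test was run there). For Fracture against Control in Stab2+ cells, 2305 genes were called; the count was 1012 with DESeq2, 1017 in cells thinned to 2000 UMIs, 671 in cells with at least 6 Stab2 UMIs (chosen after seeing the data), and 561 to 2531 with 1 preparation left out, the lone preparation being assumed to vary like the others. Without the filter on low counts it was 3258, with 49.4% of calls higher in place of 57.7%. Against Stab2-negative cells, 1123 became 1772 without the filter and 480 to 725 with 1 preparation left out, and against arterial cells 3258 became 1848 to 2592. For the difference of the effects, 266 became 776 without the filter, 131 with at least 3 Stab2 UMIs, 57 without cells rich in megakaryocyte transcripts (chosen after seeing the data) and 0 to 889 with 1 preparation left out; DESeq2 gave 192. The cause of these shifts was not tested, beyond fewer cells or preparations entering. Igf1 turned from a rise to -0.16 in cells with at least 6 Stab2 UMIs. Alternatives were run for 132 genes for Fracture against Control, 20 against Stab2-negative cells, 10 against arterial cells and 10 for the difference, and no other of these turned direction.

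Control and Fracture preparations share the numbers 1 and 2, but nothing in the labels says that a number marks a shared day or litter, and over genes the deviations of the same number correlated by only 0.122 with 2 pairs. With the number as a replicate block, 3137 genes were called, among them all 2305.

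Depth limits genes of a few CPM: 3 UMIs over all Stab2+ cells correspond to 0.352 CPM. With n = 2 the share of cells could not reach p under 0.333, and Fracture sums rest on 193 and 205 cells.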
